A study of Mus musculus with 28 samples.

Results

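The 10 mouse genes for CTCF and the cohesin machinery (Ctcf, Rad21, Smc1a, Smc3, Stag1, Stag2, Nipbl, Wapl, Pds5a and Pds5b) were examined as binding targets, not as proteins. They were selected by name from 21761 protein-coding genes, and every peak within 10 kb of their gene bodies was taken from 11 peak lists. The series has 28 samples, of which these 11 chromatin immunoprecipitation (ChIP) libraries from sorted, formaldehyde-fixed cells of the olfactory epithelium were used. Control mature olfactory sensory neurons, which carried OMP-IRES-GFP, gave 2 CTCF, 2 Rad21 and 3 Ldb1 libraries. Ldb1 was also mapped in 2 libraries from Lhx2 KO neurons that carried OMP-IRES-Cre together with Lhx2fl/fl and the reporter Rosa-CAG-tdtom+/fl. Cre there is driven from the Omp gene, which mature neurons express. The other 2 Ldb1 libraries came from Olfr1507+ cells, marked by M28-IRES-GFP. The KO differs from its control in Cre and in reporter as well as in Lhx2. No age is given for these groups. Whether libraries of 1 group stem from different mice is not said either, and a p-value therefore reflects only how far these libraries scatter, which could be technical.

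Cohesin is a ring built from Smc1a, Smc3 and Rad21, to which a Stag1 or Stag2 subunit is added. Nipbl loads the ring and drives it along DNA as it extrudes a loop, Wapl releases it, and Pds5a and Pds5b bind it and act with Wapl. CTCF is a zinc-finger protein that halts the ring, so that the 2 proteins often share sites at the feet of loops. Ldb1 is a cofactor without a DNA-binding domain. It reaches chromatin through proteins like Lhx2, a LIM-homeodomain factor, and in olfactory neurons it is known for its part at the enhancers of odorant receptor genes.

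The lists held from 542 to 34210 peaks on the main chromosomes, and the depth behind them is unknown because they carry no read numbers. The 3 control Ldb1 lists held 24877, 28879 and 16067 peaks, the Lhx2 KO lists 4290 and 542, and the Olfr1507 lists 5095 and 21250. A region below is a set of overlapping peaks with a peak of at least 2 libraries of its group. Because scores of different lists are not on a known common scale, each peak is given by its score percentile, its place among the peaks of its own list from 0 (lowest) to 100 (highest). Peaks show binding and not expression, so neither the loss of Lhx2 nor the identity of the cells can be checked from them. All 8 markers of mature olfactory neurons looked up, such as Omp and Cnga2, had a control Ldb1 region (background: 39.7% of all protein-coding genes). So did 1 of 5 markers of basal and progenitor cells, 1 of 4 of sustentacular cells and 2 of 4 of glial, immune and vascular cells. The 8 mature markers all had CTCF, Rad21 and Olfr1507 Ldb1 regions too, and 2 had a Lhx2 KO Ldb1 region. At the basal, sustentacular and last lists CTCF regions numbered 0, 2 and 3 genes and Rad21 regions 0, 2 and 2. Lhx2 KO and Olfr1507 Ldb1 regions were at 0 of these genes. The backgrounds of these groups are given below.

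CTCF and cohesin were found together at the starts of 4 of the 10 genes (background: 4.41% of all protein-coding genes had both at the start). CTCF regions lay near 7 of the 10 genes (background: 56.5% of all protein-coding genes) and Rad21 regions near 6 (background 31.6%). Control Ldb1 regions lay near 8 (background 39.7%). Lhx2 KO Ldb1 regions lay near 1, Stag1 (background 1.53%), and Olfr1507 Ldb1 regions near 2, Rad21 and Wapl (background 11.6%). These genes are long, from 30.9 to 361 kb, and among all 6908 genes in that range of length 71.9% had a CTCF, 43.0% a Rad21, 60.0% a control Ldb1, 2.49% a Lhx2 KO Ldb1 and 21.8% an Olfr1507 Ldb1 region. Read against genes of this length, the 7 genes with CTCF and the 2 with Olfr1507 Ldb1 are at the background. The 6 with Rad21 and the 8 with control Ldb1 are above theirs by few genes, and Lhx2 KO Ldb1 rests on 1 gene. None of these counts was tested.

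A gene start was taken to reach 1 kb to either side. A CTCF region lay at the start of 4 genes, Smc3, Stag1, Stag2 and Pds5b (background 12.2%), and a Rad21 region lay at the same 4 starts (background 5.46%). A control Ldb1 region lay at 1 start, that of Pds5b (background 12.5%), an Lhx2 KO Ldb1 region at 1, that of Stag1 (background 0.276%), and an Olfr1507 Ldb1 region at 0 (background 0.914%). Of the 15 CTCF regions 4 were at a start, of the 8 Rad21 regions 4, of the 20 control Ldb1 regions 1, of the Lhx2 KO Ldb1 regions 1 of 1 and of the 2 Olfr1507 Ldb1 regions 0. Over the genome 10.3% of CTCF, 11.4% of Rad21, 11.4% of control Ldb1, 13.5% of Lhx2 KO Ldb1 and 3.73% of Olfr1507 Ldb1 regions lay at the start of a protein-coding gene. Single libraries had a peak near 7 and 10 of the genes for CTCF (backgrounds 58.9% and 66.7%) and near 6 and 8 for Rad21 (backgrounds 32.7% and 60.4%), the second library having the longer list for both factors. The position of control Ldb1, with 1 of 20 regions and 1 of 10 genes at a start, is near its background. For Rad21, Nipbl and Stag2 the annotation used gave no strand, so either end of the gene counted as a start.

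**Figure D1:**
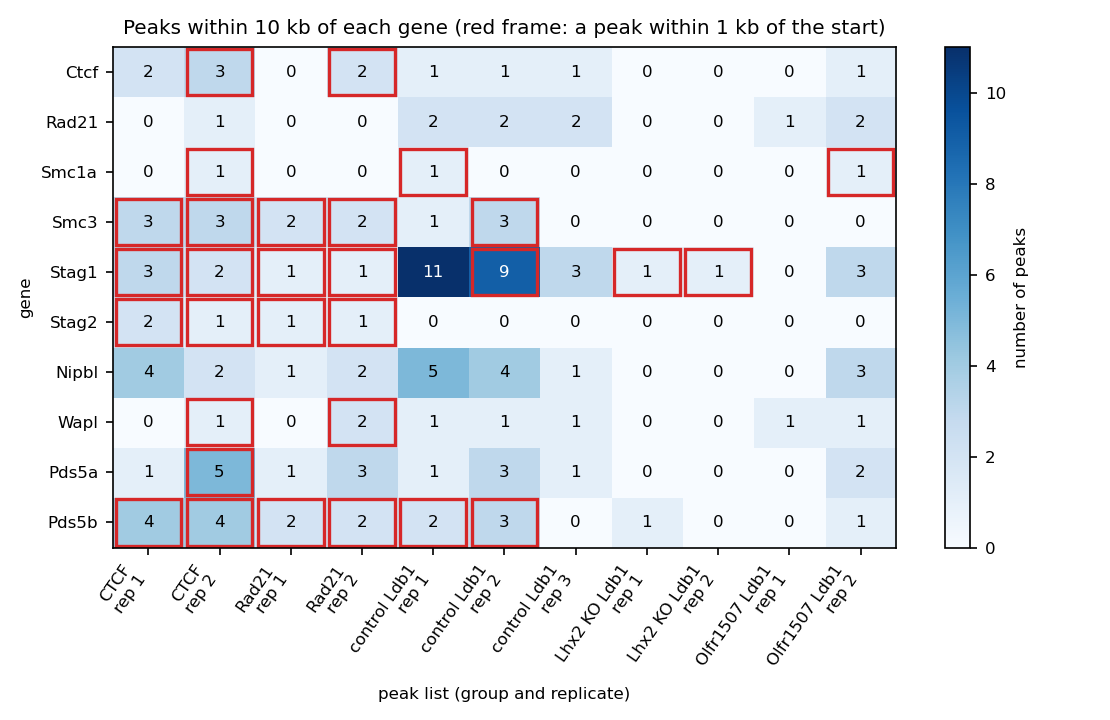
Number of peaks within 10 kb of each gene (rows) in each of the 11 lists (columns), as a number and a shade of blue. A red frame marks a list with a peak within 1 kb of the gene start. Stag1 has the most peaks, 11 in the first control Ldb1 list, and the frames of CTCF and Rad21 fall on Smc3, Stag1, Stag2 and Pds5b in both libraries.

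The sequences before 4 of the starts are shown beside the CTCF peaks near them. Only that of Pds5b holds most of the bound stretch. The CTCF peaks of Smc3 and the single CTCF peak of Smc1a lie outside the bases shown, and those of Stag1 overlap only their end. Each is the 250 bases before the start in RefSeq (GRCm38.p6, the build called mm10), on the strand of the gene, and capitals mark the core of the CTCF motif, here AG, then G or A, then G or T, then GGC, on either strand. The order is that of their binding: Pds5b has all 4 CTCF and Rad21 peaks over its core, Stag1 has all 4 at its start, Smc3 has them further upstream, and Smc1a has no CTCF region.
Pds5b, chr5:150673577-150673826, plus strand: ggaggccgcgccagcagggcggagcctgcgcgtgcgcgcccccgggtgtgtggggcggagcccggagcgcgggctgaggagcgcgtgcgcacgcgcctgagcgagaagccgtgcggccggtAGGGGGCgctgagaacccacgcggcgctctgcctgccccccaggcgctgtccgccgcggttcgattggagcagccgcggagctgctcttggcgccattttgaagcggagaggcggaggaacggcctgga
Stag1, chr9:100643198-100643447, plus strand: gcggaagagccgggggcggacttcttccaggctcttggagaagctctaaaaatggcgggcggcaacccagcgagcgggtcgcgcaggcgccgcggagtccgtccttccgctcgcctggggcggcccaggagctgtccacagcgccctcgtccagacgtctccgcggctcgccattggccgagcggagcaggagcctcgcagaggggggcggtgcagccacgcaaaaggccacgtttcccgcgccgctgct
Smc3, chr19:53600146-53600395, plus strand: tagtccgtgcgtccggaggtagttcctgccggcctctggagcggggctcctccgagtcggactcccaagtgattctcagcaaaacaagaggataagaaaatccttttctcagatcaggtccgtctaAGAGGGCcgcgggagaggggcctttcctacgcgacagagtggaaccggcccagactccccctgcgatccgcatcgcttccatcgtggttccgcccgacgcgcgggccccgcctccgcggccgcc
Smc1a, chrX:152016178-152016427, plus strand: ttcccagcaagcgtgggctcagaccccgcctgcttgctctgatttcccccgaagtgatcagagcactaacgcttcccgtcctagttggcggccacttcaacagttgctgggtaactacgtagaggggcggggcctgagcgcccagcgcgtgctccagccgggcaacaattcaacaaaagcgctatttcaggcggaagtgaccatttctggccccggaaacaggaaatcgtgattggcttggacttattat

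In Pds5b the core began 129 bases before the start, and both CTCF peaks, both Rad21 peaks and a peak of the second control Ldb1 library covered it. In Smc3 a core began 124 bases before the start, and of the 11 lists only the second control Ldb1 list had a peak over it. No core was found before Stag1 or Smc1a, which says only that these letters are not in this window. With the 50 bases after the start included, 2 of the 7 members found in the promoter table held the core, against 27.6% of the 32851 promoters in it. Of promoters with a CTCF region over this window 57.7% held the core, and of those without one 26.2%. The motif of EBF factors (TCCC and GGGA, 2 bases apart) and the homeodomain motif TAATTA were in 0 of the 7, against 0.904% and 5.29% of all promoters. The G and C content of the 7 promoters ran from 58.3% in Smc1a to 80.3% in Pds5a, against a median of 52.7% over the table. The 5th and 95th percentiles of the table were 36.3% and 73.7%. Smc1a, Smc3 (65.0%) and Wapl (67.0%) lay inside that range, and Ctcf (75.3%), Pds5b (75.7%) and Pds5a above it.

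Ctcf, on chromosome 8 from 105636474 to 105682922, had a peak of its own product at its start in 1 of the 2 CTCF libraries. That peak of the second CTCF list began 0.165 kb after the start and stood at percentile 97.4, and a peak of the second Rad21 list at percentile 83.7 overlapped it. The first CTCF and the first Rad21 lists had no peak there, so the site is not a region of either factor. Both CTCF libraries shared 2 weaker sites. One lay inside the gene, 24.7 kb after the start, at percentiles 23.5 and 22.7, and the other lay in Carmil2, beyond the end of Ctcf, at percentiles 18.5 and 51.7. Ldb1 was found 3.89 kb after the start, inside the gene, at percentiles 58.6, 68.1 and 25.9 in the 3 control libraries. The second Olfr1507 library had a peak there at percentile 70.0, and the other Olfr1507 library and both Lhx2 KO libraries had none.

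Of the ring subunits, Smc3 carried CTCF and Rad21 at its start and beyond its far end. The gene ends at 53645831, and the far site begins at 53648766. The site before its start stood at percentiles 89.8 and 97.5 in the CTCF lists and at 68.8 and 84.9 in the Rad21 lists. The site beyond its far end, 48.4 kb from the start, stood at 88.9 and 90.0 for CTCF and at 64.8 and 89.5 for Rad21. Another CTCF region inside the gene was weaker, at percentiles 30.3 and 26.5, and had no Rad21 peak. Its single control Ldb1 region lay 55.2 kb from the start, outside the gene, at percentiles 37.4 and 38.5 in the first 2 libraries.

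Rad21 had no Rad21 peak in either list within 10 kb of its body on chromosome 15 (51962604 to 51993538). Its only CTCF peak, in the second list, was weak, at percentile 5.75. The gene instead had 2 control Ldb1 regions, both inside it and both found in all 3 libraries. The stronger lay from 51985551 to 51985888, 7.65 kb from the nearer end, at percentiles 82.1, 85.4 and 69.8, and it was also in both Olfr1507 lists, at 30.1 and 77.7. The other, 1.34 kb from that end, stood at 64.2, 69.1 and 46.3 and was in the second Olfr1507 list at 59.7. Smc1a had no region of any factor. A CTCF peak of the second list (percentile 15.5), a peak of the first control Ldb1 list (3.35) and a peak of the second Olfr1507 list (2.57) lay at or near its start, and all ranked low.

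The paralogues Stag1 and Stag2 both had CTCF and Rad21 at the start. At the start of Stag1 the CTCF percentiles were 72.7 and 99.9 and the Rad21 percentiles 43.3 and 99.2. At the end of Stag2 listed at 42149297 on chromosome X they were 48.6 and 98.7 for CTCF and 36.1 and 92.9 for Rad21. Stag1 had 8 control Ldb1 regions in a window of 381 kb, or 2.10 per 100 kb, and Stag2 had 0 peaks of any Ldb1 library in 148 kb. The pooled density over the windows of all protein-coding genes was 1.34 per 100 kb, and over the 10 genes it was 1.50. The RefSeq body of Stag1 starts upstream of the start used here, and 2 of its 8 Ldb1 regions lay in that upstream part, 44.4 kb and 7.54 kb before the start. Of the 8 regions 3 were in all 3 control libraries. The strongest of these lay 307 kb after the start, at percentiles 73.2, 81.9 and 25.9. The distal CTCF region of Stag1, 274 kb after the start, was of middle rank, at 47.0 and 50.9.

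Nipbl, the loader, had 2 CTCF regions, 4 control Ldb1 regions and no peak at either end. The site 19.7 kb from its nearer end held both CTCF peaks (percentiles 55.5 and 95.5) and both Rad21 peaks (6.01 and 87.4). The other CTCF region, 13.9 kb from that end, was at 50.4 and 48.5, and only the second Rad21 library had a peak there, at 17.1. Its Ldb1 regions ranked low. The one found in all 3 control libraries, 49.8 kb from the nearer end, stood at 34.6, 50.9 and 25.9.

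Wapl, which releases cohesin, had the highest-ranked Ldb1 region of the 10 genes and no CTCF or Rad21 region. The Ldb1 region lay from 34669347 to 34669684 on chromosome 14, 4.24 kb before the start, at percentiles 85.7, 90.2 and 72.5. It had a peak in both Olfr1507 lists, at 13.1 and 75.8, and in neither Lhx2 KO list. At the start itself the second CTCF list had a peak at percentile 12.6 and the second Rad21 list had 2, at 33.8 and 23.3, and these did not reach a second library.

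Pds5a and Pds5b each had CTCF and Rad21 close to the start. In Pds5a the shared site lay 1.13 kb inside the gene, just beyond the distance taken as the start, at percentiles 72.7 and 94.3 for CTCF and 98.1 and 93.8 for Rad21. It was the only site of the 10 genes where a Rad21 percentile was higher in the first library than in the second. The second CTCF list had a further peak over the Pds5a start, at 72.7. The control Ldb1 region of Pds5a, 7.14 kb upstream, was in all 3 libraries, at 51.2, 58.1 and 25.9, and weak peaks of the second CTCF and second Rad21 lists overlapped it, at 12.6 and 23.3. At the Pds5b start CTCF stood at 30.3 and 99.9 and Rad21 at 92.1 and 99.9, and a second shared site lay 7.76 kb upstream, inside N4bp2l2, at 80.0 and 94.3 for CTCF and 80.8 and 84.3 for Rad21. Pds5b was also the only one of the 10 genes whose control Ldb1 regions lay on CTCF and Rad21 regions. Both of them did, and both were weak. At the start the peaks of the first 2 Ldb1 libraries were at 9.74 and 12.1 and overlapped only at their edges, and at the upstream site they were at 9.74 and 2.65.

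**Figure D2:**
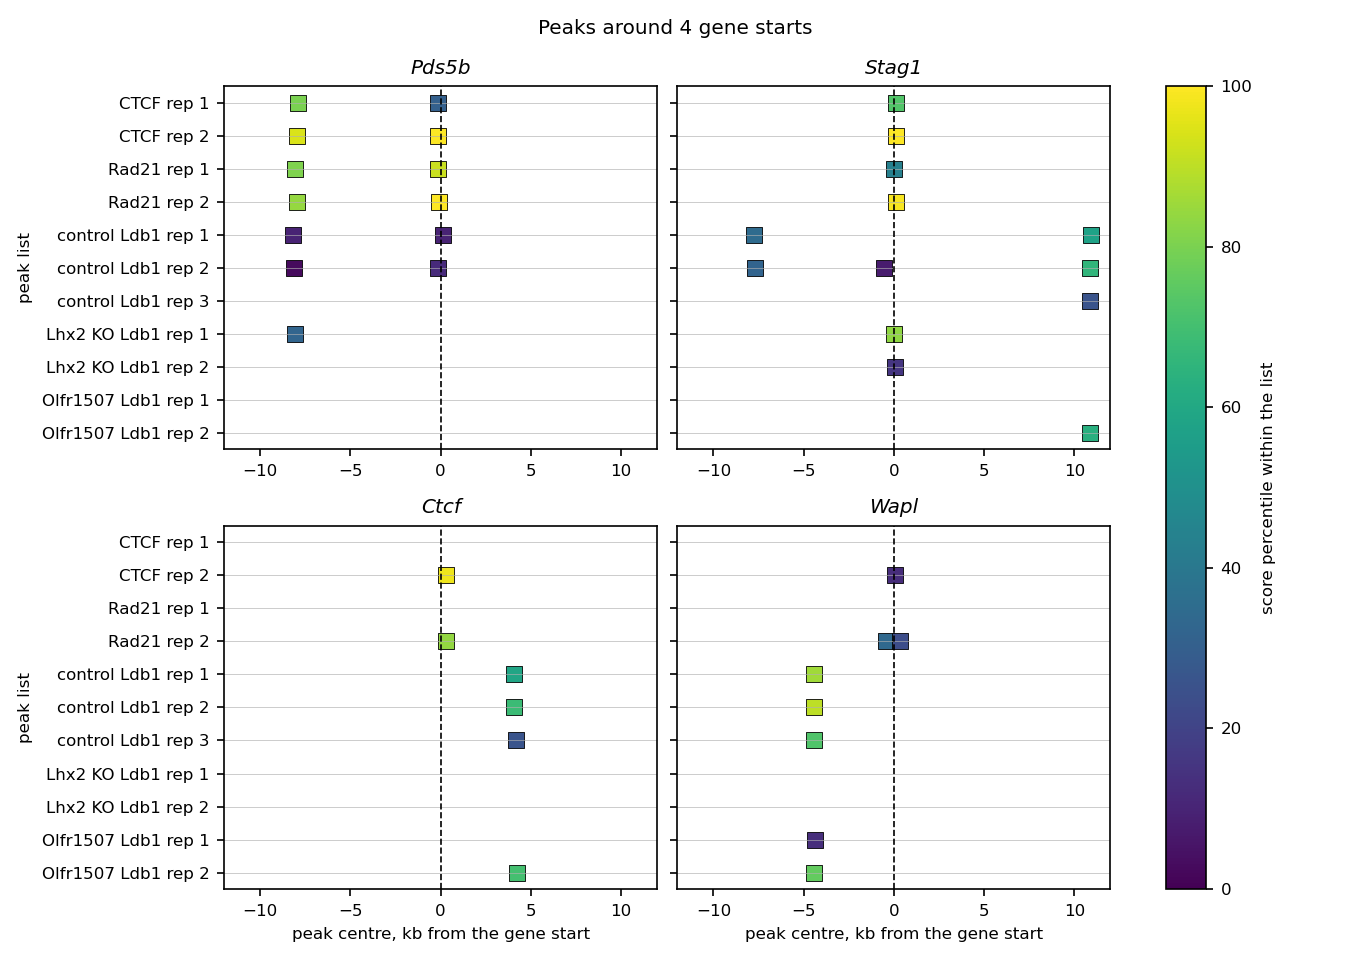
Peak centres within 12 kb of the starts of Pds5b, Stag1, Ctcf and Wapl, 1 row per list, with the x axis in kb from the start (dashed line; positive values lie inside the gene). Colour gives the score percentile within the list. CTCF and Rad21 squares of Pds5b and Stag1 stand on the start, and Pds5b has a further set about 7.8 kb upstream. The Ldb1 squares of Ctcf and Wapl stand about 4 kb away from the start.

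The 4 start sites ranked higher in the second library of each factor, as did most Rad21 sites away from starts. The 4 CTCF regions at starts had a median percentile of 60.6 in the first list and 99.3 in the second, and all 4 were higher in the second. For the 11 distal CTCF regions the medians were 50.4 and 50.9, and 6 were higher in the second. The same direction was seen over the genome: of 2564 CTCF regions at starts 88.1% ranked higher in the second list (medians 48.6 and 79.4), against 63.1% of those elsewhere (53.8 and 60.5). The 4 Rad21 regions at starts had medians of 56.1 and 96.1, and the 4 distal ones had 72.8 and 88.5, with 3 of the 4 higher in the second. Over the genome 95.4% of Rad21 regions at starts ranked higher in the second list (medians 43.3 and 84.9), and so did 87.0% of those elsewhere (55.5 and 80.5). A region needs a peak in both lists, and the second list is the longer one for both factors. The CTCF lists held 27609 and 34210 peaks and the Rad21 lists 10487 and 28151. The second list thus ranks a region among more peaks that belong to no region, and its percentiles are not on the scale of the first. The part that list length and the libraries play in these ranks was not tested. A count of starts from the second CTCF library alone would be 8 of 10, and from the first alone 4. The share of all protein-coding genes with a peak of a single library at the start was not computed, so these counts have no background.

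**Figure D3:**
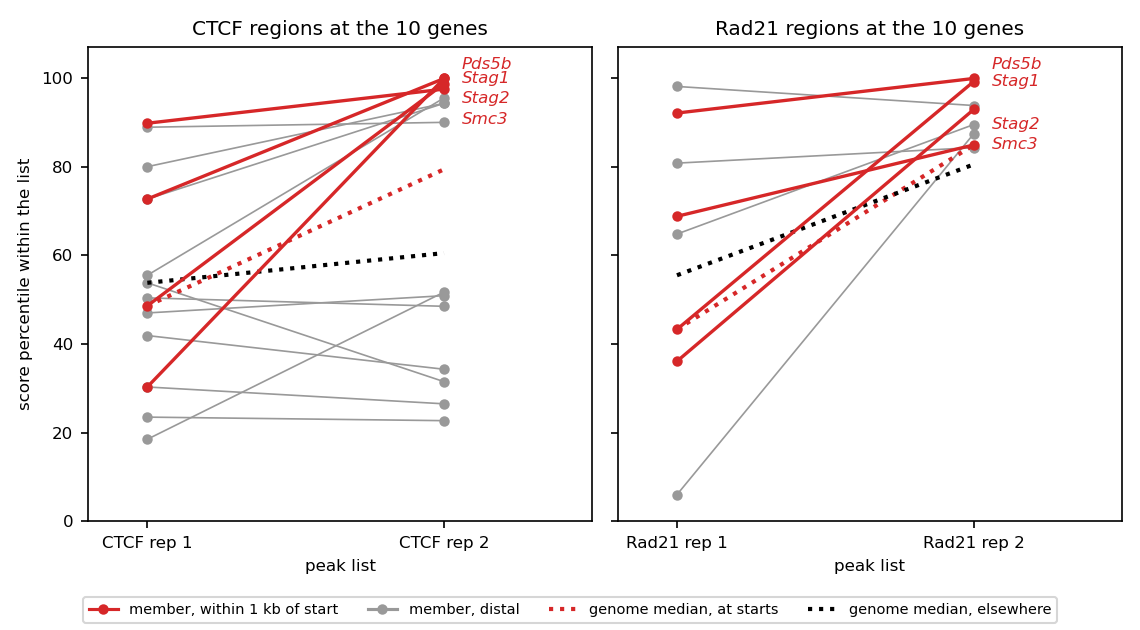
Score percentile within the list (y axis) of each CTCF region (left) and Rad21 region (right) of the 10 genes in replicate 1 and replicate 2. Red lines are regions within 1 kb of a start, grey lines distal ones, and dotted lines are medians over all regions of the genome at starts (red) and elsewhere (black). All red lines are higher in replicate 2.

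All 8 Rad21 regions of these genes lay on a CTCF region (background 92.5%). Of the 15 CTCF regions 8 lay on a Rad21 region (background 36.8%). Counted by single Rad21 libraries, 8 of the 15 had a peak of the first (background 37.9%) and 10 a peak of the second (background 65.7%). Of the 20 control Ldb1 regions 2 lay on a CTCF region (background 4.52%) and 2 on a Rad21 region (background 3.82%), in each case the 2 of Pds5b. Conversely 2 of the 15 CTCF regions lay on a control Ldb1 region (background 4.14%).

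Taken as a set, the 20 control Ldb1 regions of these genes were of modest rank. Their mean percentile over the 3 control libraries, an absent peak counting as 0, had a median of 33.8, against 45.3 over all 22789 control Ldb1 regions, and 0 of the 20 were among the top 10% of the genome. All 3 libraries had a peak at 9 of the 20, against 65.2% of all regions. The third control library, with the shortest of the 3 lists, lacked the other 11. Stag1 held 8 of the 20 regions and Nipbl 4, so these figures lean on 2 long genes. Elsewhere the mean percentiles were 82.8 at Wapl, 79.1 and 59.9 at Rad21 and 50.9 at Ctcf. They were 45.0 at Pds5a, 25.3 at Smc3 and 7.28 and 4.13 at Pds5b.

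**Figure D4:**
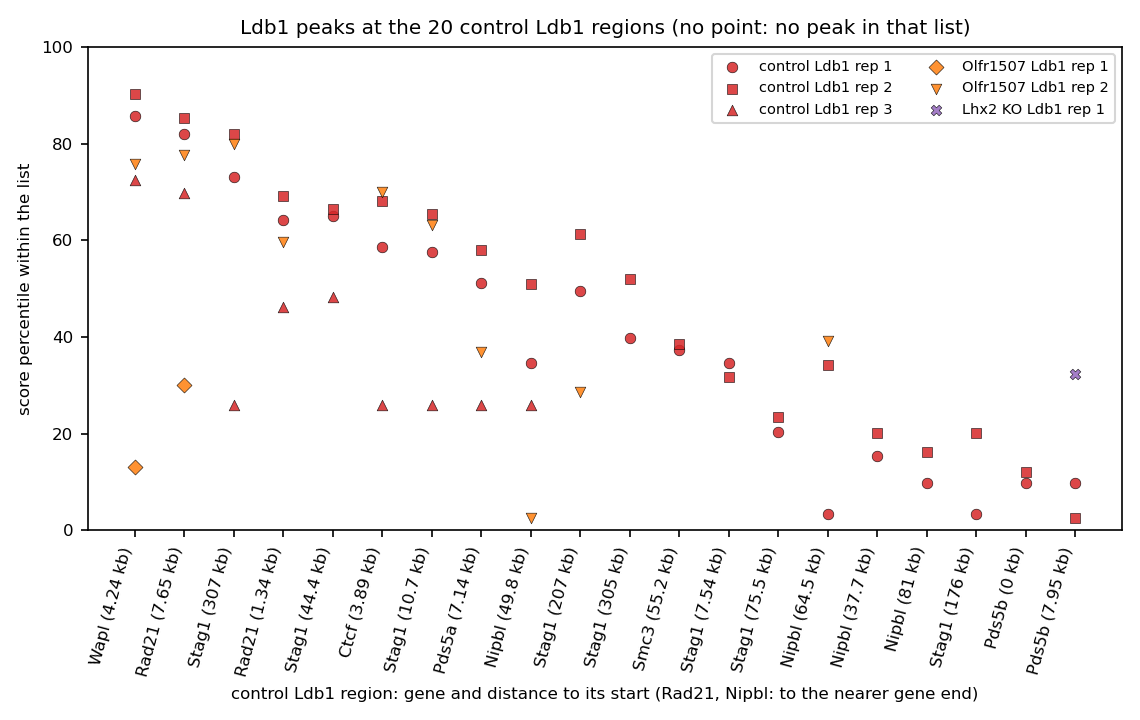
Score percentile (y axis) of Ldb1 peaks at each of the 20 control Ldb1 regions, named by gene and distance to the start and ordered by their mean in the 3 control libraries (red). Orange marks Olfr1507 libraries and purple the first Lhx2 KO library, and a missing point means no peak in that list. The Wapl and Rad21 regions lead, and they are the only ones with a point for the first Olfr1507 list.

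In the libraries labelled Lhx2 KO most of these Ldb1 sites were missing from the lists, which are also far shorter. An Ldb1 peak lay near 9, 8 and 6 of the 10 genes in the control libraries (backgrounds 43.5%, 47.5% and 29.2%) and near 2 and 1 in the Lhx2 KO libraries (backgrounds 15.2% and 2.12%). The groups do not overlap, with a difference of means of -6.17 genes, with an exact two-sided permutation p of 0.1 (adjusted p = 0.4 over 4 tests), the smallest that this number of libraries allows. List length moves with this count. With every list limited to its 542 highest peaks the control libraries had 0 of the 10 genes and the KO libraries 0 and 1, a difference of 0.5. That setting keeps the second KO list whole and cuts the control lists above the rank of all 20 control Ldb1 regions, so a control count of 0 follows from it, and the 0.5 rests on 1 peak of the lowest score in its list. With the second KO library left out and control lists limited to 4290 peaks, the control libraries had Wapl, Rad21 and Wapl, and none, and the first KO library had Stag1 and Pds5b. For the shortened lists the share of all protein-coding genes was not computed, so these counts have no background. Peaks near the 10 genes per 1000 peaks of a list were 1.00, 0.900 and 0.560 in control and 0.466 and 1.85 in KO libraries (exact permutation p = 0.8, adjusted p = 0.8). The groups overlap, and the KO values rest on 2 peaks and 1 peak.

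The first KO list held a peak at 1 of the 20 control Ldb1 regions (background 12.7%), the second at 0 (background 2.17%), and a KO region lay at 0 (background 1.66%). The one was the weak region 7.95 kb before Pds5b, which lies on CTCF and Rad21. Its KO peak stood at percentile 32.3. The strongest, at Wapl and Rad21, had none.

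Stag1 showed the reverse. Both KO libraries had an Ldb1 peak over its start (joint extent chr9:100643329-100643589), and no control or Olfr1507 library did. The nearest control peak, in the second library, ended 0.402 kb before the start and ranked at percentile 7.63. The KO peaks overlapped the CTCF and Rad21 regions of the start. They stood at percentile 83.3 in the first KO list, with a score of 16 in a list that runs from 9 to 51, and at 15.3 in the second, where the score of 12 is the lowest of the list. Over the genome 10 of the 393 Lhx2 KO Ldb1 regions had no peak in any control Ldb1 list (2.54%), and 19 lay on both a CTCF and a Rad21 region (4.83%).

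In Olfr1507+ cells the result depended on the library. The first list had an Ldb1 peak near 2 of the 10 genes, Rad21 and Wapl (background 11.6%), and the second near 8 (background 36.4%). The difference of the mean from control was -2.67 genes (exact permutation p = 0.5, adjusted p = 0.667, two-sided), within the spread of the libraries. When lists were limited to 5095 peaks, each of the 3 control and 2 Olfr1507 libraries had 2 of the 10 genes. These were Rad21 and Wapl in the 3 control libraries and the first Olfr1507 library, and Rad21 and Stag1 in the second Olfr1507 library. The share of all protein-coding genes was not computed at this list length, so these counts have no background. Peaks near the 10 genes per 1000 peaks of a list were 0.393 and 0.659 (exact permutation p = 0.3, adjusted p = 0.6). Of the 20 control Ldb1 regions, 2 had a peak in the first Olfr1507 library (background 21.8%) and 10 in the second (background 73.5%), and an Olfr1507 region lay at 2 (background 21.6%). The 10 were 3 regions of Stag1, 2 of Rad21, 2 of Nipbl and 1 each of Ctcf, Wapl and Pds5a. The control libraries serve both comparisons, which are therefore not independent.

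Related genes were looked up as 4 lists. Among 9 genes of other factors known from CTCF sites, 9 had a CTCF region, 6 a Rad21 and 5 a control Ldb1 region (the backgrounds are those given for the 10 genes), with 2 Ldb1 regions at Adnp. Among 11 condensin and other SMC genes the counts were 3, 1 and 5, with 4 Ldb1 regions at Ncapg2, a subunit of condensin II, and 3 each at Ncapd2 and Smchd1. Ncapg2 also had a Lhx2 KO and an Olfr1507 Ldb1 region, and Ncapd2 an Olfr1507 Ldb1 region. Among 8 genes of the loader partner, of acetylation and of release the counts were 5, 1 and 2, with 2 Ldb1 regions at Esco1 and 1 at Esco2, both acetyltransferases of Smc3. Among 5 germline paralogues (Smc1b, Rad21l, Rec8, Stag3 and Ctcfl) they were 4, 2 and 2, the Ldb1 regions lying at Smc1b and Rad21l. CTCF and Rad21 regions together at a start were seen in 2 of these 33 genes, Maz and Adnp, near the share of all genes given above (4.41%).

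For Ctcf the genes with the most similar numbers of peaks over the 11 lists were sought by the summed absolute difference. Mrps28, Sit1, Sfpq, Gmeb1 and Myo15 had the same numbers in every list, a difference of 0. The numbers are small, so such ties carry little information.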

How the data were processed

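Formaldehyde fixation came before sorting, and chromatin was sheared by sonication, per the labels' protocols. HOMER 4.7, Picard, SAMtools 1.3.1, Bowtie2 2.3.2, cutadapt 1.9.1 and STAR 2.5.3a, with the build mm10, are named without roles in the submitters' processing notes. For the peak threshold, control library and filters, the entry is: not given in the sources used here. The deposited lists, 1 per library, hold peaks of 1 width each (but for 1 peak) and a score per peak, a whole number set by the authors that served here only for ranking inside 1 list.

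Peaks off the assembled autosomes, X and Y were dropped, and the rest were linked where they overlapped by at least 1 base. Genes came from RefSeq (GRCm38.p6), and 126 protein-coding entries that ended within the first 3 Mb of a chromosome or repeated a gene were left out. The 3 Mb cut was meant for entries of unplaced scaffolds. It was applied to all chromosomes, Y included, so any placed gene there was dropped too. Starts and strands came from the RefSeq promoter table, which held 7 of the 10 genes. A peak in the windows of 2 genes counts for both. Library values were compared by two-sided exact permutation, with Benjamini-Hochberg adjustment over 4 tests. Where lists were shortened, tied scores were taken in order of position. The code was tested on simulated data (Python 3.11.15, pandas 2.3.3, numpy 2.4.6).

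The members, lists and tests were chosen with earlier results of these data known. Named were all 10 genes, their regions at starts, the highest-ranked distal region per gene and factor, regions in both KO libraries and, per related list, the 2 genes with the most control Ldb1 regions (ties included), of which 1 gene is not reported here. Other peaks and regions were described after their values were seen. Alternatives covered the number of libraries, the linking rule, the distances, the list length and leaving out each library. The input and RNA samples were not analysed here, and 2 RNA samples with conflicting labels were given no group.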

Additional observations from a re-analysis of the deposited data

How the results depend on the processing

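Of 119 alternative values for the 14 results, 89 kept the direction and stayed within 1.5 times of a count. Some of the 89 could not differ. In the groups with 2 libraries, asking for a peak in all libraries is the main rule itself. Apart from the single-library shares given above, shares of all genes were not recomputed under the alternative rules. The counts below therefore show how the numbers for the 10 genes move, without a background of their own. With only the peaks on the higher-scoring side of the middle of each list, the numbers of genes with a region were 3 for Rad21, 5 for control Ldb1, 0 for Lhx2 KO Ldb1 and 0 for Olfr1507 Ldb1, and at starts 2 for CTCF, 2 for Rad21, 0 for control Ldb1 and 0 for Lhx2 KO Ldb1. With a peak in any 1 library they were 2 for Lhx2 KO and 8 for Olfr1507, and at starts 8 for CTCF, 4 for control Ldb1 and 1 for Olfr1507. The control Ldb1 region at the Pds5b start was lost (0) when all libraries or centres within 200 bases were required, and 2.5 kb around the start gave 2 genes. Without the 10 kb extension control Ldb1 counted 5 and Olfr1507 Ldb1 1.

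Leaving out 1 library gave 7 to 10 genes for CTCF, 6 to 8 for Rad21, 6 to 8 for control Ldb1, 1 to 2 for Lhx2 KO and 2 to 8 for Olfr1507. At starts it gave 4 to 8 for CTCF, 4 to 6 for Rad21, 0 to 1 for control Ldb1, 1 for Lhx2 KO and 0 to 1 for Olfr1507. In the groups with 2 libraries a region then needed only the 1 library left, so these are counts of single libraries. For control Ldb1 the rule of 2 libraries was kept. The differences in genes per library ran from -7 to -5.5 for Lhx2 KO and from -5.67 to 0.333 for Olfr1507, the last without its first library. Those in peaks per 1000 ran from -0.356 (without the second KO library) to 1.02, and from -0.429 to -0.163.

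With lists limited to 542 peaks the Lhx2 KO difference turned from -6.17 to 0.5 genes, a value that rests on 1 peak since the setting removes every control peak near these genes, and with 4290 peaks and no second KO library to 1 gene. The latter was chosen after seeing the data. With 5095 peaks both Olfr1507 differences were 0. With replicate numbers as pairs, a replicate block, the differences were -7 genes and 0.203 peaks per 1000 for Lhx2 KO, and -3.5 genes and -0.427 for Olfr1507. Whether the numbers mark pairs is not known. Deviations of same-numbered libraries over all genes correlated at 0.14 and -0.28 for Lhx2 KO and -0.29 and 0.62 for Olfr1507. In a group of 2 libraries the deviations are mirror images of each other, so these correlations cannot decide it. The cause of these changes was not tested.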
